A study of Rattus norvegicus with 18 samples.

Results

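The comparison described here is between control hippocampal neurons held in KCl for 6 h and control neurons held in it for 1 h. It rests on 6 of the series' 18 arrays, 3 per time, chosen by their labels alone and numbered replicate 1 to 3 at each time. The cells were rat hippocampal neurons in dissociated culture. Lentiviruses with control shRNAs were added on day 3, and on day 10 both groups spent 1 h in the NMDA receptor blocker AP5 and the sodium channel blocker TTX before 55 mM KCl was added to the medium. The 2 groups therefore share virus, blockers and KCl, and differ in the time in KCl. No array without KCl was matched to the later time. The time in KCl therefore cannot be told apart from the time elapsed or from any further time in the blockers. The other 12 arrays are 3 control arrays taken at 0 h of KCl, which were in the blockers, and 9 arrays of neurons with shRNAs against MEF2A and MEF2D (the RNAi arm) taken at 0, 1 and 6 h. Arrays of a group are biological replicates by label, with no word on whether the cultures were separate. The p-values therefore measure the spread between arrays within groups, pooled over all 18 arrays.

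Raising extracellular KCl depolarizes neurons and lets calcium in through voltage-gated channels. Calcium signals switch on immediate early genes within minutes through factors such as CREB, SRF and MEF2 that are already in the cell. Many of their products are themselves transcription factors (the Fos, Jun, Egr and Nr4a families) or act at synapses (Arc), and their mRNAs are typically short-lived. A later wave of genes needs newly made proteins and encodes secreted factors, receptors and enzymes.

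Of 10934 genes tested, 3878 were called at an adjusted p under 0.05 (limma, Benjamini-Hochberg), or 35.5% of genes. At 6 h, 1642 genes were higher than at 1 h (15% of genes tested) and 2236 were lower (20.4%). Counts within the gene lists below are to be read beside these shares. Most changes were small: the median absolute log2 change of the called genes was 0.42. Called changes of at least 2-fold numbered 115 higher (1.05%) and 119 lower (1.09%), and 10 rises and 3 falls reached 4-fold. All 3 arrays of 6 h lay above all 3 of 1 h for 19.7% of genes and below them for 24.7%, and the median log2 change over all genes was -0.01. Among the called genes, 99.6% moved in the called direction in each of the 3 pairs of arrays with the same replicate number. Across genes the arrays correlated at 0.994 to 0.997 within a group and at 0.983 to 0.989 between 6 h and 1 h. Signals below are the deposited linear intensities of 1 probe set per gene. Levels are compared within a probe set and not between genes, and a change in level cannot be told apart from a change in the share of the cells that make the mRNA.

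**Figure D1:**
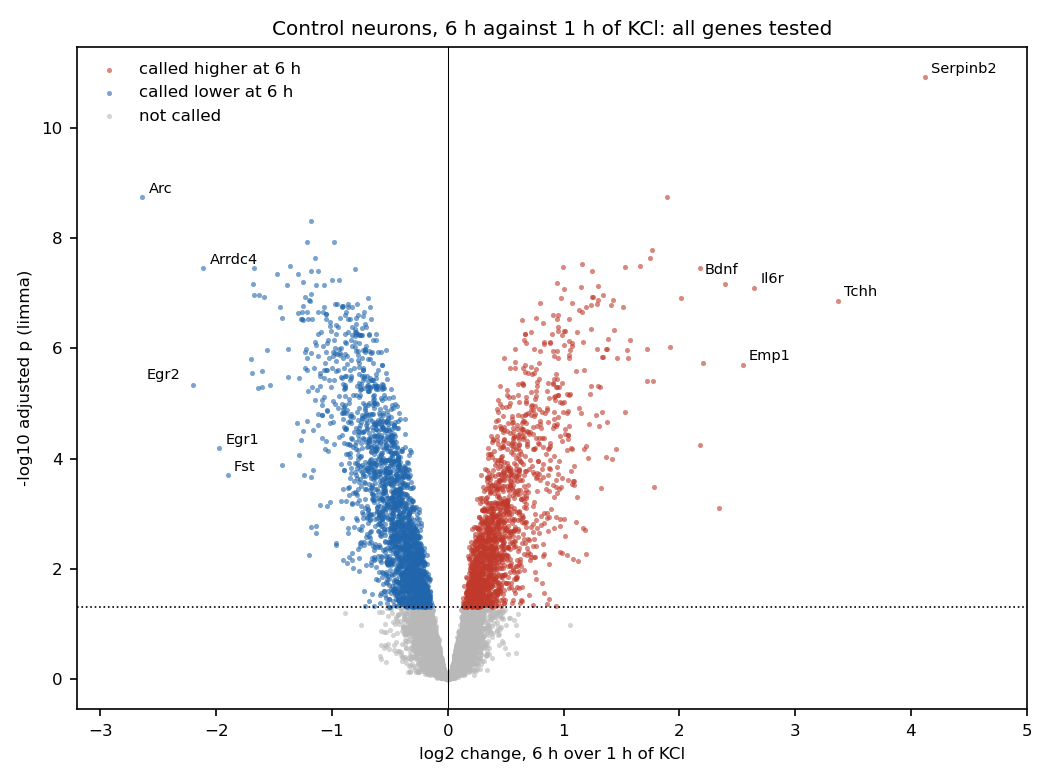
Each point is 1 of 10934 genes, with the log2 change of 6 h over 1 h of KCl in control neurons on the horizontal axis and -log10 of limma's adjusted p on the vertical axis. The dotted line marks an adjusted p of 0.05, and Serpinb2 and Tchh lie farthest to the right and Arc and Egr2 farthest to the left.

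The genes with the largest falls included Arc and the Egr factors, which had been induced at 1 h. Arc, which encodes a synaptic protein that promotes removal of AMPA receptors, had signals of 583, 576 and 570 at 6 h, against 3592, 3306 and 3889 at 1 h. The 6 h arrays were close to one another and far below every 1 h array, a 6.23-fold fall (log2 change -2.64 ± 0.12 SE, n = 3 each, limma adjusted p = 1.81e-09). At 0 h the mean was 447, so 4.12% of the rise between 0 h and 1 h was left at 6 h, with 2.04% to 6.11% over the 3 replicate numbers.

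Egr2, a zinc-finger factor, had signals of 698, 505 and 674 at 6 h, against 2834, 3081 and 2648 at 1 h (log2 change -2.20 ± 0.24 SE, limma adjusted p = 4.62e-06). Egr1, its close relative, had 4627, 3091 and 3241 at 6 h, against 13736, 14362 and 14239 at 1 h (log2 change -1.97 ± 0.29 SE, limma adjusted p = 6.48e-05). For both, all 6 h arrays were below all 1 h arrays, and replicate 1 was the highest at 6 h. The share of the 1 h rise left at 6 h was 9.68% for Egr2 and 13.2% for Egr1, and both were still called higher at 6 h than at 0 h, when they averaged 387 and 2056. Egr4 fell less and kept 30.9% of its rise, with signals of 1296, 1171 and 1214 at 6 h, against 3192, 3655 and 3846 at 1 h (log2 change -1.54). Nab1, a corepressor that binds Egr proteins, went the other way, with means of 1880 at 6 h and 1080 at 1 h (log2 change 0.80 ± 0.10 SE). Nab2 averaged 1113 at 6 h and 918 at 1 h and was not called (adjusted p = 0.218). Egr3 did not pass the filter on low signals and was not tested.

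The promoters of Egr2 and Egr1, from 250 bases before to 50 bases after the annotated start, are shown because both fell strongly after a strong rise. Their capitals mark CArG boxes, the motif of the factor SRF, and CRE cores (TGACG or its complement), found in the motif of CREB. Sequences and coordinates are RefSeq's on build GRCr8. Egr2 lies at chr20:21054392-21054691 on the minus strand and Egr1 at chr18:26736828-26737127 on the plus strand.
Egr2: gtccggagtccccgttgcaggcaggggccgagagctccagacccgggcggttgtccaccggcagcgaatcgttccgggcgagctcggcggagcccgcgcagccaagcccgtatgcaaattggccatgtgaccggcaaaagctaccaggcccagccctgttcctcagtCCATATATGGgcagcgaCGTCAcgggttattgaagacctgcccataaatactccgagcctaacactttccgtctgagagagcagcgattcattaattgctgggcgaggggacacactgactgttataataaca
Egr1: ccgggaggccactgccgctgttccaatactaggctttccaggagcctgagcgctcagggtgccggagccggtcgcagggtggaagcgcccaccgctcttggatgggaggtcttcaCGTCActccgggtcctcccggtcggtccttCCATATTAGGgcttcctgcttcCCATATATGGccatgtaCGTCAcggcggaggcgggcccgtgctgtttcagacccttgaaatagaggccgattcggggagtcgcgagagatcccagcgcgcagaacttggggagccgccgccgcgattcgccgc
Egr2 held 1 CArG box, starting at base -83 from the gene's start, and 1 CRE core at -66. Egr1 held CArG boxes at -105 and -83 and CRE cores at -135 and -66. A match describes the letters in this window and does not show binding.

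Ier2, an early gene of nuclear function, had 2540, 2517 and 2796 at 6 h, against 8431, 7765 and 7408 at 1 h, a 3.00-fold fall that left 21.5% of its rise. It completed the 4 of the 15 largest falls that were called higher at 1 h than at 0 h, with Arc, Egr2 and Egr1. Klf4, a Krüppel-like factor, had 1825, 1819 and 2049 at 6 h, against 3957, 4953 and 5022 at 1 h (log2 change -1.28 ± 0.14 SE). Ccn1, a secreted matrix protein also called Cyr61, had 563, 864 and 733 at 6 h, against 1538, 2013 and 2244 at 1 h (log2 change -1.43 ± 0.22 SE). Neither gene had overlapping arrays, and each kept about as much of its rise as Egr4, 30.4% for Klf4 and 30.7% for Ccn1. Tob1, which recruits deadenylases to mRNAs, had 2112, 2208 and 2284 at 6 h, against 4930, 4093 and 3954 at 1 h, and 14.4% of its rise was left.

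Members of the Fos, Jun and Nr4a families had smaller falls than Arc and Egr2. Of 7 Fos and Jun genes, 3 were lower and 2 higher, with a median log2 change of -0.51 beside -0.01 for all genes. Junb, a partner of Fos in the AP-1 factor, had 3271, 3664 and 3482 at 6 h, against 6394, 7519 and 7576 at 1 h (log2 change -1.04 ± 0.11 SE, limma adjusted p = 2.49e-06). Fosb had 3064, 2706 and 2746 at 6 h, against 4922, 6632 and 7863 at 1 h (log2 change -1.17 ± 0.19 SE). Both remained far above their 0 h means, and kept 45.0% of the rise for Junb and 42.1% for Fosb. Jun averaged 3683 at 6 h and 6836 at 1 h, with 22.6% of its rise left.

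Fos, the founding immediate early gene, had 7977, 7985 and 8373 at 6 h, against 12314, 11251 and 11045 at 1 h. Every 6 h array was below every 1 h array, but the change of -0.51 ± 0.35 SE was not called (limma adjusted p = 0.289). The fit shares 1 spread over all 18 arrays, and the control 0 h arrays of Fos were at 1193, 613 and 273. A fit on the 6 arrays alone gave an adjusted p of 0.00202. A second Fos probe set, with signals of 272 to 319 on the 6 arrays, showed a log2 change of 0.07.

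By their brightest probe sets, all 3 Nr4a genes, orphan nuclear receptors, had every 6 h array below every 1 h array, and 2 were called lower. Nr4a1 had 4645, 5489 and 6326 at 6 h, against 8906, 10269 and 11634 at 1 h (log2 change -0.91 ± 0.24 SE, limma adjusted p = 0.00700). In both groups replicate 1 was lowest and replicate 3 highest. Nr4a2 averaged 2781 at 6 h and 4441 at 1 h (log2 change -0.68, limma adjusted p = 0.0380). That call was lost on leaving out single arrays: at 1 h the adjusted p was 0.0597, 0.0709 and 0.110 for replicates 1, 2 and 3 left out, and at 6 h it was 0.102 for replicate 1 and 0.0919 for replicate 3. Nr4a3 averaged 5260 at 6 h and 6786 at 1 h (log2 change -0.37, limma adjusted p = 0.150), and with the replicate number as a block its adjusted p was 0.0260. Other Nr4a3 probe sets changed by 0.04 and -0.08, and with the mean of all its probe sets the limma adjusted p was 0.455. Dusp1, a phosphatase that switches off MAP kinases, had 3780, 4380 and 4436 at 6 h, against 7495, 7796 and 7897 at 1 h (log2 change -0.88 ± 0.10 SE), which left 47.2% of its rise.

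**Figure D2:**
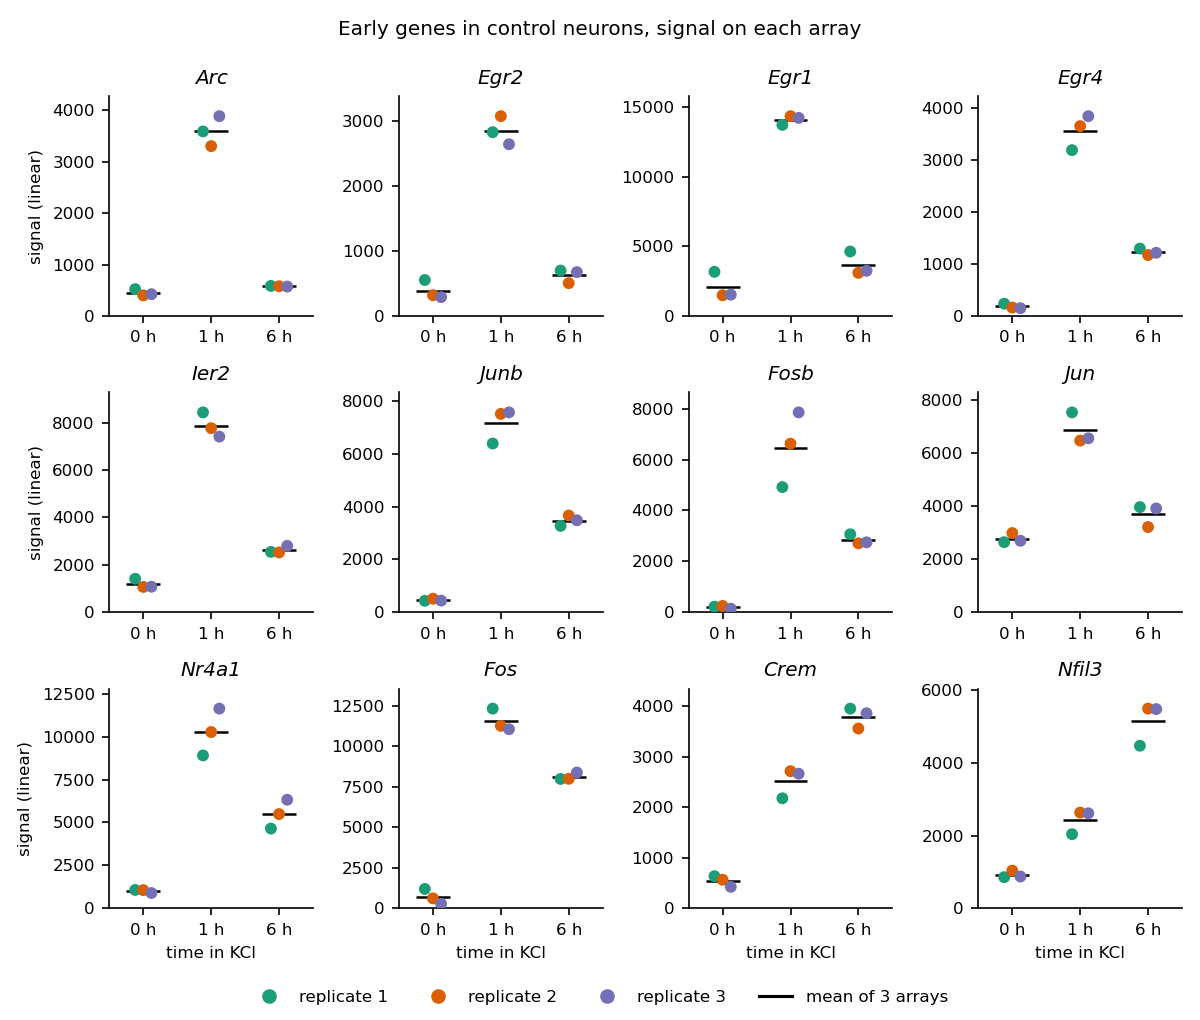
Linear signal on each control array at 0, 1 and 6 h of KCl for 12 early genes, with 1 colour per replicate number and a bar for the mean of 3 arrays. At 6 h Arc, Egr2 and Egr1 were far below their 1 h level. Fos, Fosb, Junb and Nr4a1 were below their 1 h level but well above their 0 h level. Crem and Nfil3 were higher at 6 h than at 1 h.

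Other early genes went on rising. Nfil3, a repressor of the bZIP family, had 4475, 5496 and 5484 at 6 h, against 2039, 2635 and 2615 at 1 h (log2 change 1.09 ± 0.19 SE, limma adjusted p = 0.000299). Rgs2, which shortens G protein signalling, had 6940, 7091 and 6863 at 6 h, against 3696, 4175 and 3878 at 1 h (log2 change 0.83 ± 0.17 SE). Both genes had all 6 h arrays above all 1 h arrays and had already risen by 1 h, from 0 h means of 923 for Nfil3 and 1255 for Rgs2. Fosl2, a Fos relative, averaged 1519 at 6 h and 821 at 1 h, and Csrnp1, a nuclear protein, had a log2 change of 1.06. Cebpb, a bZIP factor, averaged 4286 at 6 h and 2379 at 1 h (log2 change 0.85 ± 0.13 SE). Crem, whose gene gives both activators and the repressor ICER, had 3952, 3558 and 3860 at 6 h, against 2177, 2714 and 2664 at 1 h (log2 change 0.60 ± 0.17 SE, limma adjusted p = 0.0142). Without control 1 h replicate 1 that adjusted p was 0.0652, and Crem's 6 probe sets spanned log2 changes of -0.04 to 0.90.

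To describe early genes without the 1 h control arrays deciding which they are, they were taken from the RNAi arm, which shares no array with the control arm. There, 42 genes (0.384% of those tested) were called at least 2-fold higher at 1 h than at 0 h. In control neurons 19 of the 42 were lower at 6 h than at 1 h (45.2%, beside 20.4% of all genes) and 9 were higher (21.4%, beside 15%), and 14 were not called. Their median log2 change was -0.32. Besides the genes named above, those lower at 6 h included Clk1, a kinase of splicing factors, with 1989, 1995 and 1894 at 6 h, against 3876, 3682 and 3589 at 1 h, and Gadd45g, with a log2 change of -0.59. Genes that were not called included Maff, a small Maf factor with means of 597 at 6 h and 566 at 1 h, Sik1, a salt-inducible kinase with 2074 at 6 h and 2268 at 1 h, and Gem, a small GTPase with 545 at 6 h and 411 at 1 h. The 9 that rose were Tslp, Klf2, Nfil3, Csrnp1, Fosl2, Rgs2, Crem, Dusp4 and Atf3. With a 1 h log2 change of at least 0.5 in place of 1, 83 genes were taken, of which 28.9% were lower and 31.3% higher.

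Most of the largest rises followed no called rise at 1 h. Of the 15 largest, 2 (Bdnf and Sh3rf1) were called higher at 1 h than at 0 h (1.19% of all genes were), and none was called lower (1.51%). All 15 were higher at 6 h than at 0 h (16.1%). These counts use arrays that also chose the genes, so they describe the genes' levels and are no separate result. Serpinb2, an inhibitor of plasminogen activators, had 1571, 1012 and 1275 at 6 h, against 43.1, 45.4 and 39.6 at 1 h. All 1 h arrays were below the table's 20th percentile of 72.6, so the change is a lower bound, at least 17.4-fold higher (limma adjusted p = 1.19e-11). Tchh, which encodes trichohyalin, a structural protein of hair follicles, had 1368, 1727 and 1437 at 6 h, against 144, 165 and 128 at 1 h, a 10.4-fold rise (log2 change 3.37 ± 0.25 SE, limma adjusted p = 1.35e-07). Il6r, the ligand-binding receptor chain of interleukin 6, had 1055, 1491 and 1380 at 6 h, against 210, 212 and 198 at 1 h, a 6.27-fold rise. Emp1, a membrane protein of the PMP22 family, had 2760, 2947 and 3296 at 6 h, against 506, 507 and 524 at 1 h (log2 change 2.55 ± 0.26 SE), and its other probe set rose by 0.48. For each of these 4 genes the lowest 6 h array was several times the highest 1 h array.

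Their promoters are shown because these rises were the largest with 1 entry in the promoter table. Capitals mark AP-1 sites (TGANTCA, the motif bound by Fos and Jun dimers) in Serpinb2, Tchh and Emp1, the TATA motif (TATAAA) in Tchh, and a CRE core that overlaps an E-box (CACGTG) in Il6r. Serpinb2 lies at chr13:24055771-24056070 on the plus strand, Tchh at chr2:181786859-181787158 on the plus strand, Il6r at chr2:177645160-177645459 on the minus strand and Emp1 at chr4:169943980-169944279 on the plus strand.
Serpinb2: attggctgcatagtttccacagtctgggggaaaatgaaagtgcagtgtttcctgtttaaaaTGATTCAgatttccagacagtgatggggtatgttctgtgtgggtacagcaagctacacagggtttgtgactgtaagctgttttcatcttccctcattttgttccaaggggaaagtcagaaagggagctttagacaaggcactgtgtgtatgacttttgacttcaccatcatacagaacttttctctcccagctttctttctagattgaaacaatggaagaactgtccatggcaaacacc
Tchh: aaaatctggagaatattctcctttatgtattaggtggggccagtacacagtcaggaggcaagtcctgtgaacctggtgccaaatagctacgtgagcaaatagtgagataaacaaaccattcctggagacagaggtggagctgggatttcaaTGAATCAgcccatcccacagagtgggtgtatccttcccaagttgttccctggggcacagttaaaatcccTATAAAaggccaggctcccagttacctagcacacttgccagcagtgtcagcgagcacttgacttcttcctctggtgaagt
Il6r: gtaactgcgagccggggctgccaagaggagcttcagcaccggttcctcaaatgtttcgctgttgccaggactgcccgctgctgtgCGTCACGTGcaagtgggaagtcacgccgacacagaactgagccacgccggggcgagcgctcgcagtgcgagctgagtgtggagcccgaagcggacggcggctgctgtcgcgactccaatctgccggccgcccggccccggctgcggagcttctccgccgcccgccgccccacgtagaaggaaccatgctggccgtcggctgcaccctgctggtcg
Emp1: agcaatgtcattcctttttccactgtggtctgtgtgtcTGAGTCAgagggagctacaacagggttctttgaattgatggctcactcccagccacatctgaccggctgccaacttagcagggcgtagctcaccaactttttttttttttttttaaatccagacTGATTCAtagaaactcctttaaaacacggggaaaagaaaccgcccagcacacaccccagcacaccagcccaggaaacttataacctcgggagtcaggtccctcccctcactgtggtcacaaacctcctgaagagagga
The AP-1 matches started at base -189 in Serpinb2, at -99 in Tchh and at -212 and -88 in Emp1. The TATA motif of Tchh started at -30. An AP-1 site was found on either strand in 10 of the 86 promoters of genes that rose at least 2-fold (11.6%), in 3 of 93 promoters of genes that fell at least 2-fold (3.23%) and in 4.71% of the 8505 promoters of genes tested that have 1 entry. Over all 33469 promoters of the table the share was 7.33%.

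Secreted and signalling genes formed a second group of late rises. Bdnf, the neurotrophin that acts through TrkB, had 3086, 2856 and 3337 at 6 h, against 548, 596 and 615 at 1 h, a 5.27-fold rise (log2 change 2.40 ± 0.16 SE, limma adjusted p = 6.81e-08). Its other probe set rose by 0.99, with 854, 820 and 946 at 6 h, against 388, 456 and 474 at 1 h. Both probe sets had all 6 h arrays above all 1 h arrays. Of 26 secreted factors and neuropeptides tested, 13 were higher and 2 lower (Ccn1 and Fst), with a median log2 change of 0.28. Nppc, which encodes C-type natriuretic peptide, averaged 842 at 6 h and 361 at 1 h (log2 change 1.22 ± 0.16 SE). Scg2, the secretogranin from which secretoneurin is cut, averaged 4210 at 6 h and 2056 at 1 h, and Penk, the enkephalin precursor, averaged 1702 at 6 h and 884 at 1 h. Ccn2, a matrix protein also called CTGF, had 404, 1036 and 1573 at 6 h, against 89.3, 236 and 238 at 1 h (log2 change 2.34 ± 0.45 SE), with replicate 1 lowest in both groups. Among 9 genes of peptide processing, 2 rose and none fell: Pam, which amidates peptides (log2 change 0.95 ± 0.08 SE), and Pcsk2, a prohormone convertase (0.65 ± 0.13 SE).

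Single regulators of calcium signalling, a kinase and a channel were among the largest rises, though the list of 23 calcium signalling genes had 5 higher and 4 lower, with a median log2 change of -0.002. Rcan2, an inhibitor of the calcium-activated phosphatase calcineurin, had 2167, 2701 and 2947 at 6 h, against 564, 604 and 550 at 1 h (log2 change 2.18 ± 0.14 SE). Sgk1, a kinase that acts on ion channels and transporters, had 5886, 6005 and 6266 at 6 h, against 1298, 1940 and 1634 at 1 h (log2 change 1.92 ± 0.18 SE). Trpc6, a calcium-permeable cation channel, had 420, 435 and 439 at 6 h, against 129, 113 and 108 at 1 h (log2 change 1.89 ± 0.09 SE, limma adjusted p = 1.81e-09). No array overlapped between the times in any of the 3. Slc5a3, which carries myo-inositol into cells, averaged 3.45-fold higher at 6 h, and Sh3rf1, a scaffold of JNK signalling, 3.39-fold higher. Hdac5, a class IIa histone deacetylase that binds MEF2, had 3119, 3040 and 3199 at 6 h, against 1335, 1284 and 1299 at 1 h (log2 change 1.26 ± 0.09 SE). In its list of 7 MEF2 and deacetylase genes, 4 rose, Mef2c by 0.64 and Mef2d by 0.39 among them, and Mef2a fell by 0.31 (adjusted p = 0.0203). The Mef2a call was lost when replicate 1 was left out at 6 h (adjusted p = 0.110), at 1 h (0.0845) or in all groups (0.257).

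Homer1 shows how the choice of probe set bears on a late gene. It encodes long scaffold proteins of the postsynapse and a short activity-induced form. Its brightest probe set had 2727, 2633 and 2684 at 6 h, against 2381, 2134 and 2050 at 1 h, a log2 change of 0.30. Another had 4504, 3836 and 3592 at 6 h, against 381, 541 and 402 at 1 h, a log2 change of 3.18 ± 0.13 SE in the fit over all probe sets (limma adjusted p = 3.33e-08). One more had 1329, 1283 and 1005 at 6 h, against 743, 1960 and 1181 at 1 h, with overlapping arrays, after 141, 156 and 124 at 0 h. The first differed little between the times, the next rose between 1 h and 6 h, and the last had risen by 1 h. Which transcript each probe set reads was not determined here. The mean of all probe sets in place of the brightest moved the log2 change of 41 called genes among those named by rule by over 1.5 times. It gave -1.27 for Egr2, -0.77 for Egr4, 1.51 for Emp1, 0.89 for Slc5a3, 0.69 for Hdac5 and 0.41 for Pam. Among genes named below, it gave -0.82 for Rbbp9, -0.63 for Arrdc3, 0.62 for Pcdh20, 0.49 for Dot1l, -0.41 for Kcnip1 and -0.34 for Pdk2.

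A list of CREB pathway genes and late transcription factors, which also holds Creb1, Crtc1 and Crtc2, had 20 members tested. Of these, 10 rose and 1 (Tfe3) fell, with a median log2 change of 0.37. The 1 fall was not called without control 6 h replicate 1 or control 1 h replicate 2 or 3. Klf5, a Krüppel-like factor, had 274, 255 and 404 at 6 h, against 54.6, 64.2 and 80.3 at 1 h (log2 change 2.02 ± 0.15 SE). Because 2 of its 1 h arrays were below the floor of 72.6, that size depends on the floor, and the mean of its probe sets gave 0.65. Cebpg, a partner of Atf4, and Nfat5, a factor of the osmotic response, rose by 0.72 and 0.62. Atf4 switches on genes of amino acid uptake and synthesis when cells run short of amino acids or are under stress. Its own mRNA averaged 12032 at 6 h and 10932 at 1 h and was not called (log2 change 0.14, limma adjusted p = 0.104). Of 24 Atf4 targets 16 rose and 1 fell (70.8% called, beside 35.5% of all genes), with a median of 0.36. Chac1, which degrades glutathione, had 7280, 7173 and 7014 at 6 h, against 3352, 3353 and 3478 at 1 h (log2 change 1.08 ± 0.10 SE). Slc7a1, a transporter of cationic amino acids, and Mthfd2, a mitochondrial folate enzyme, rose by 0.77 and 0.61, and Vldlr, a lipoprotein and reelin receptor, rose by 1.00. Chaperones and other genes of the unfolded protein response in the endoplasmic reticulum had 3 of 23 higher, 4 lower and a median of -0.04. The share called there was 30.4%, beside 35.5% of all genes. The 4 lower became 7 with the replicate number as a block or with replicate 3 at 6 h left out, and 2 with replicate 1 of either time or replicate 2 at 6 h left out. Of 15 heat shock genes, 4 rose and 1 fell, and Hspa4l, an Hsp110-type exchange factor, had 2587, 2516 and 2634 at 6 h, against 892, 852 and 930 at 1 h (log2 change 1.53 ± 0.09 SE).

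Most lists of feedback regulators and synaptic genes held calls in both directions, as did all genes tested (15% higher and 20.4% lower). The share called was 53.8% for RGS proteins and 42.9% for MAP kinase phosphatases and related inhibitors, beside 35.5% of all genes. It was 65% for synaptic effectors, 42.1% for postsynaptic scaffolds, 16.7% for glutamate receptors and 15.4% for GABA genes. Of 13 RGS proteins, which speed GTP hydrolysis by G proteins, 6 were higher and 1 lower. Without control 1 h replicate 1, 3 were higher, and the 1 lower was not called without control 6 h replicate 2 or 3 or control 1 h replicate 1 or 3. MAP kinase phosphatases and related inhibitors had 4 of 14 higher and 2 lower: Dusp14 averaged 1855 at 6 h and 856 at 1 h, Spry4 averaged 2955 at 6 h and 1694 at 1 h, and Dusp2 fell beside Dusp1. Of 20 activity-regulated synaptic effectors 9 rose and 4 fell, with Sgk1 and Arc at the ends of the range. The postsynaptic scaffold list had 4 of 19 higher, among them Sipa1l1, a Rap GTPase activator (log2 change 0.72 ± 0.06 SE), and 4 lower, among them Dlg3, also called SAP102 (-0.70 ± 0.09 SE). Glutamate receptors had 1 of 18 higher and 2 lower, and none higher without control 6 h replicate 2 or 3 or control 1 h replicate 1. Gad1, which makes GABA, had 2165, 1660 and 2285 at 6 h, against 1106, 948 and 900 at 1 h (log2 change 1.04 ± 0.14 SE), and 1 more of 13 GABA genes was called, Gabrb1, a receptor subunit.

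**Figure D3:**
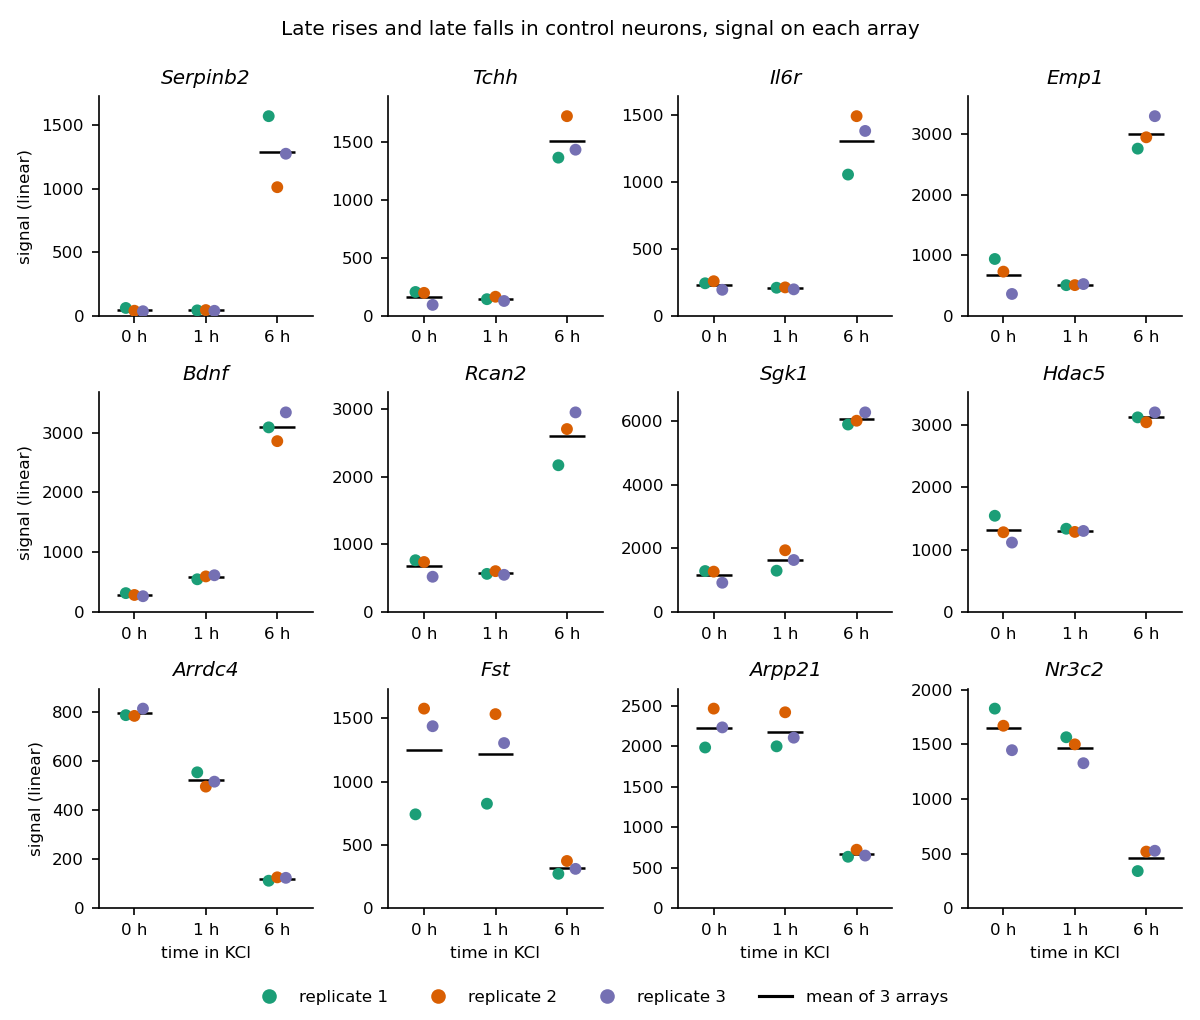
Linear signal on each control array at 0, 1 and 6 h of KCl for 8 genes with late rises and 4 with late falls, with 1 colour per replicate number and a bar for the mean of 3 arrays. Serpinb2, Tchh, Il6r and Hdac5 were at their 0 h level at 1 h and high at 6 h, while Fst, Arpp21 and Nr3c2 kept their 0 h level at 1 h and were low at 6 h.

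Most of the large falls followed no called rise at 1 h. Of the 15 largest falls, 11 were called lower at 6 h than at 0 h as well (25.5% of all genes were), and those 11 were not called higher at 1 h than at 0 h. These counts too use arrays that chose the genes. The arrays of the RNAi arm give the same description without those arrays. Of the 119 genes that fell at least 2-fold in control neurons, 10 were called higher in the RNAi arm at 1 h than at 0 h (1.23% of all genes were), 10 lower (2.64%) and 99 neither. At 6 h against 0 h in that arm, 105 of the 119 were lower (25.3% of all genes were), 7 higher and 7 neither. Of the 115 genes that rose at least 2-fold, 8 were higher and 4 lower at 1 h in the RNAi arm, and 105 were higher at 6 h than at 0 h (14.7% of all genes were).

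Arrdc4, an arrestin-domain relative of Txnip, had 112, 126 and 124 at 6 h, against 553, 495 and 515 at 1 h, a 4.32-fold fall (log2 change -2.11 ± 0.13 SE, limma adjusted p = 3.50e-08). At 0 h it averaged 793, so it was already lower at 1 h and lower still at 6 h. Arrdc3 followed the same course, with means of 493 at 6 h and 960 at 1 h (log2 change -0.97 ± 0.23 SE) after 2118 at 0 h. Txnip itself, a glucose-responsive protein that binds and inhibits thioredoxin, had 563, 539 and 470 at 6 h, against 954, 545 and 584 at 1 h. Its arrays overlapped and it was not called (log2 change -0.36, adjusted p = 0.277). Its 0 h mean was 3266, and it was called lower at 1 h than at 0 h (log2 change -2.27). Of the 9 genes in this list 3 rose and 2 fell, and the risers included Mlx, the partner of the glucose-responsive factors that control Txnip.

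Fst, the activin-binding protein follistatin, had 272, 373 and 311 at 6 h, against 826, 1533 and 1305 at 1 h, with replicate 1 lowest in both groups (log2 change -1.90 ± 0.31 SE). Nr3c2, the mineralocorticoid receptor, had 341, 519 and 526 at 6 h, against 1566, 1501 and 1328 at 1 h (log2 change -1.69 ± 0.18 SE). Arpp21, a phosphoprotein of the cAMP pathway that is abundant in forebrain neurons, had 636, 723 and 651 at 6 h, against 2000, 2420 and 2107 at 1 h (log2 change -1.70 ± 0.17 SE). In each gene every 6 h array was below every 1 h array. A second Arpp21 probe set moved the other way, with 667, 661 and 878 at 6 h, against 386, 493 and 400 at 1 h (log2 change 0.78, limma adjusted p = 0.00507 over all probe sets), and the mean of all 3 probe sets gave -0.13 and no call.

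The promoters of Arrdc4 and Arpp21 are shown because they complete the 4 largest falls with 1 entry in the table. Arrdc4 lies at chr1:131793376-131793675 on the minus strand and Arpp21 at chr8:121031308-121031607 on the minus strand. Capitals mark an E-box (CACGTG) in Arrdc4, at -177, and a MEF2 site in Arpp21, at -173.
Arrdc4: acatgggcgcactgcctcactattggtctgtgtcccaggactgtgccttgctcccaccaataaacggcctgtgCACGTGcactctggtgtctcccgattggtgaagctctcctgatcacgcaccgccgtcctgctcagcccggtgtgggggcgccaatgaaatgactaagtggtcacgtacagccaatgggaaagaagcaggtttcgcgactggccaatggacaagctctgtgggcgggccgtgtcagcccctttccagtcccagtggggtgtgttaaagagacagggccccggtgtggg
Arpp21: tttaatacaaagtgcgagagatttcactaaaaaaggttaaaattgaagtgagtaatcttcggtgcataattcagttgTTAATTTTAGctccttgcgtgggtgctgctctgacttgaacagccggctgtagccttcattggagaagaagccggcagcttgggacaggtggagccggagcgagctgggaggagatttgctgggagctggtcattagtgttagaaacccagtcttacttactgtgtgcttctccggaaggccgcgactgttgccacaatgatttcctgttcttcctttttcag
The E-box occurred in 5.38% of promoters of genes that fell at least 2-fold and in 9.91% of those of genes tested. The MEF2 site occurred in 5 of the 93 promoters of these falls (5.38%) and in 1.26% of those of genes tested. Over all 33469 promoters the shares were 6.42% for the E-box and 3.29% for the MEF2 site.

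The remaining large falls were in genes of varied function. Ttc8, a subunit of the ciliary BBSome, had 156, 124 and 120 at 6 h, against 493, 403 and 387 at 1 h (log2 change -1.68 ± 0.11 SE). Ngly1, which strips sugars from misfolded glycoproteins, had 465, 345 and 353 at 6 h, against 1390, 1087 and 1045 at 1 h (log2 change -1.60 ± 0.18 SE). Ccdc34, Zmat1, Rbbp9 and Scrn3 fell by 1.68, 1.67, 1.64 and 1.63 on the log2 scale. Zc3h6, a CCCH zinc-finger gene, was below the floor on all 6 h arrays and at 258, 224 and 186 at 1 h, at least 3.04-fold lower. Replicate 1 was the highest array of Ttc8 and of Ngly1 at both times.

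Of 17 mRNA decay factors 7 fell (41.2%, beside 20.4% of all genes) and none rose, with a median log2 change of -0.17. Tob1 had the largest change there, and Dcp1b, a cofactor of decapping, averaged 347 at 6 h and 504 at 1 h (log2 change -0.54 ± 0.09 SE). Leaving out replicate 1 at 1 h left 3 falls, and leaving out replicate 3 at 6 h left 4. Of 20 voltage-gated potassium channel genes 8 fell (40%, beside 20.4% of all genes) and 5 rose (25%, beside 15%). Kcnip1, which binds A-type channels, and Kcnab1, a Kv1 beta subunit, fell by 0.86 and 0.84, though a second Kcnab1 probe set changed by -0.12. The Kv1 pore subunits Kcna1, with 1189, 948 and 1476 at 6 h, against 627, 460 and 595 at 1 h, and Kcna4, with 462, 685 and 781 at 6 h, against 271, 327 and 275 at 1 h, rose by 1.09 and 1.11. Without control 6 h replicate 3, 5 potassium channel genes fell and 3 rose.

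Among 21 sodium and calcium channel genes 4 rose and 3 fell (33.3% called, beside 35.5% of all genes). Only 2 rose if replicate 3 at 6 h or replicate 1 at 1 h was left out. Cacnb2, a calcium channel beta subunit, averaged 911 at 6 h and 464 at 1 h (log2 change 0.97 ± 0.11 SE). Cacna1d, the pore of Cav1.3 channels, averaged 138 at 6 h and 247 at 1 h (log2 change -0.85 ± 0.14 SE), and Scn2b, a sodium channel beta subunit, fell by 0.77. The mean of all probe sets gave 0.58 for Cacnb2, -0.24 for Cacna1d and -0.38 for Scn2b. Axon guidance genes had 6 of 33 higher and 6 lower (36.4% called), and 10 lower with the replicate number as a block. Plxna2, a semaphorin receptor, had 1096, 1337 and 1077 at 6 h, against 2075, 2663 and 2273 at 1 h (log2 change -0.997 ± 0.10 SE). Its other probe sets gave -0.41 and -0.22. Per2 and Cry1, repressors of the circadian clock, rose by 0.95 and 0.72, while Dbp, a clock output gene, fell by 0.35. Matrix, adhesion and protease genes had 6 of 18 higher and 1 lower (38.9% called). Cd44, a hyaluronan receptor, averaged 1013 at 6 h and 447 at 1 h (log2 change 1.18 ± 0.17 SE).

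None of 21 ribosomal protein genes was called, and their log2 changes lay between -0.05 and 0.11. With the replicate number as a block 1 of them, Rpl19, was called higher (log2 change 0.11). Of 29 respiratory chain genes 5 fell (17.2%, beside 20.4% of all genes) and none rose. Ndufs1, a complex I subunit, had the largest fall (log2 change -0.65 ± 0.10 SE). The count of falls was 10 with the replicate number as a block and 9 without control 6 h replicate 1. It was 3 when replicate 3 of either time was left out, and 1 on leaving out replicate 2 at 6 h or replicate 1 at 1 h. Polr2a, the largest subunit of RNA polymerase II, had 958, 817 and 597 at 6 h, against 1386, 1495 and 1262 at 1 h (log2 change -0.83 ± 0.16 SE). It was 1 of 2 called among 10 housekeeping genes, with Hprt1 higher by 0.38. Leaving out replicate 1 at 6 h gave 2 higher and 2 lower, and leaving out replicate 1 at 1 h gave 2 higher.

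**Figure D4:**
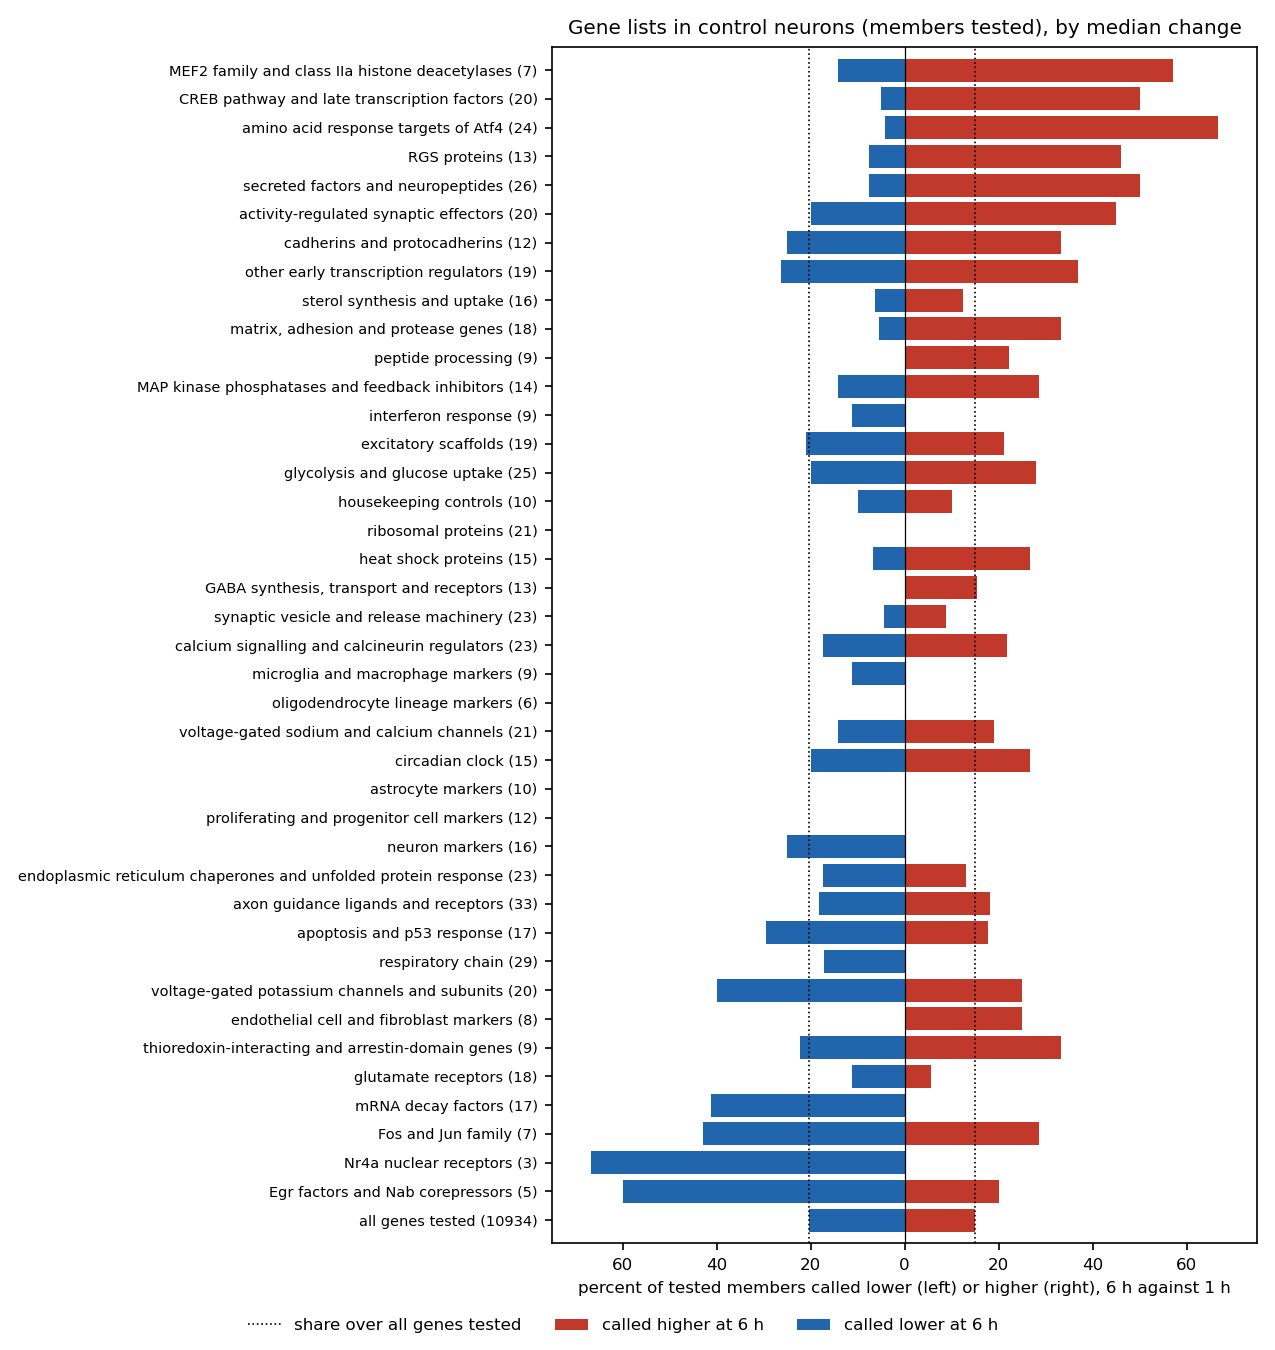
Share of each list's tested members called higher (right) or lower (left) at 6 h than at 1 h in control neurons, with the number tested in brackets and lists in order of their median log2 change. Dotted lines mark the shares over all genes tested, 15% higher and 20.4% lower; Atf4 targets had 16 of 24 higher and mRNA decay factors 7 of 17 lower.

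The labelled cell type was checked against its markers. All 16 neuron markers were tested, and their summed signals were 91857 to 96660 on the 6 h arrays and 99562 to 104480 on the 1 h arrays. Neurod6, Nefh, Tubb3 and Elavl4 were lower at 6 h and no neuron marker was higher. Neurod6, a factor of excitatory forebrain neurons, had 5139, 5823 and 5223 at 6 h, against 8587, 8828 and 8620 at 1 h (log2 change -0.69 ± 0.08 SE). Without control 6 h replicate 1, 2 neuron markers were called lower, and Elavl4 was also not called without control 6 h replicate 2 or 3 or control 1 h replicate 1 or 3. Markers of glial and dividing cells were also measured. None of 10 astrocyte markers was called, with sums of 47400 to 54523 at 6 h and 47509 to 57750 at 1 h, and the astrocyte filament gene Gfap averaged 9260 at 6 h and 9620 at 1 h. None of 6 oligodendrocyte lineage markers was called (Olig2, Mag, Mog, Mobp and Cldn11 did not pass the filter), and none of 12 proliferation markers. With the replicate number as a block Fgfr3 of the astrocyte list was called lower, Mbp and Sox10 of the oligodendrocyte list higher, Mcm2 of the proliferation list higher and Pcna lower.

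Sums of the proliferation markers in replicates 1 to 3 were 26151, 17597 and 16117 at 6 h, against 26550, 17525 and 17096 at 1 h. Sums of the oligodendrocyte lineage markers were 16685, 12667 and 10556 at 6 h, against 15485, 12158 and 10902 at 1 h. In both lists replicate 1 was highest and replicate 3 lowest at both times, whereas the neuron sums did not overlap between the times. Pdgfra, a marker of oligodendrocyte precursors, had 2199, 1615 and 449 in replicates 1 to 3 at 6 h, against 2541, 1466 and 523 at 1 h. Mki67, a marker of dividing cells, had 787, 373 and 221 at 6 h, against 707, 354 and 269 at 1 h. With the replicate 1 arrays left out of all groups, an alternative chosen after seeing these values, 3958 genes were called, 1794 higher and 2164 lower. Of 9 microglia markers only Cd68 was called, lower, with sums of 1907 to 1998 at 6 h and 1835 to 2215 at 1 h. Of 8 endothelial and fibroblast markers 2 were higher, Cldn5, a tight junction gene with means of 288 at 6 h and 113 at 1 h, and Kdr, which was not called without the replicate 1 arrays (adjusted p = 0.106). The list's sums were 4403 to 4837 at 6 h and 4033 to 5038 at 1 h, Pecam1, Flt1, Vwf and Tek did not pass the filter, and the collagen gene Col3a1 stood apart on control 1 h replicate 3, at 492 beside 111 and 127. The part of other cells in the results was not tested.

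The same comparison in the RNAi arm, on arrays that the control comparison did not use, shows how far the changes recur. The knockdown was visible in Mef2a, with signals of 443 to 594 on the RNAi arrays at 6 h and 1 h, below all control arrays of those times, whose means were 1756 and 2168. In that arm 1522 genes were higher at 6 h than at 1 h (13.9%) and 1901 lower (17.4%). Of the genes higher in control neurons 72.1% were also higher there, and these were 77.8% of the RNAi arm's own. Of those lower in control neurons 71.1% were also lower there, 83.6% of the RNAi arm's own. All 15 of the largest rises and all 15 of the largest falls were called in the same direction. Of the 234 called changes of at least 2-fold, 232 had the same sign in both arms, and the log2 changes of the arms correlated at 0.898 across genes (genes are no independent replicates).

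The sizes of the changes can be set side by side. Arc fell by 2.62 in RNAi neurons, beside -2.64 in control neurons. Bdnf rose by 1.78 in RNAi neurons, beside 2.40 in control neurons, and Tchh by 1.98, beside 3.37, but neither difference was called. Of 24 Atf4 targets 12 were higher in RNAi neurons and 16 in control neurons. Of 26 secreted factors 13 were higher in each arm, and of 20 CREB pathway genes and late transcription factors 10 were higher in each. Of 17 mRNA decay factors 3 were lower in RNAi neurons and 7 in control neurons. These list counts were not tested against each other.

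The difference between the arms was itself called for 5 genes (0.0457%), and 674 genes (6.16%) had an unadjusted p under 0.05. Trpc6 rose less in RNAi neurons, by 1.12 beside 1.89 in control neurons, and Dot1l, a histone H3 methyltransferase, rose by 0.30 beside 0.98. Sdhaf3, an assembly factor of respiratory complex II, did not pass the test in RNAi neurons (-0.04) and fell by 0.80 in control neurons. Prmt8, a brain arginine methyltransferase, and Imp3, a protein of ribosomal RNA processing, rose by 0.74 and 0.68 in RNAi neurons and were not called in control neurons. With the replicate number as a block, 77 genes were called. Leaving out single arrays gave 1 gene for replicate 2 or 3 of control 1 h, replicate 2 of control 6 h or replicate 3 of RNAi 1 h, and 2 genes for replicate 2 of RNAi 1 h. It gave 3 genes for replicate 1 of control 1 h or of RNAi 1 h or replicate 3 of control 6 h, and 9 for replicate 1 of control 6 h.

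**Figure D5:**
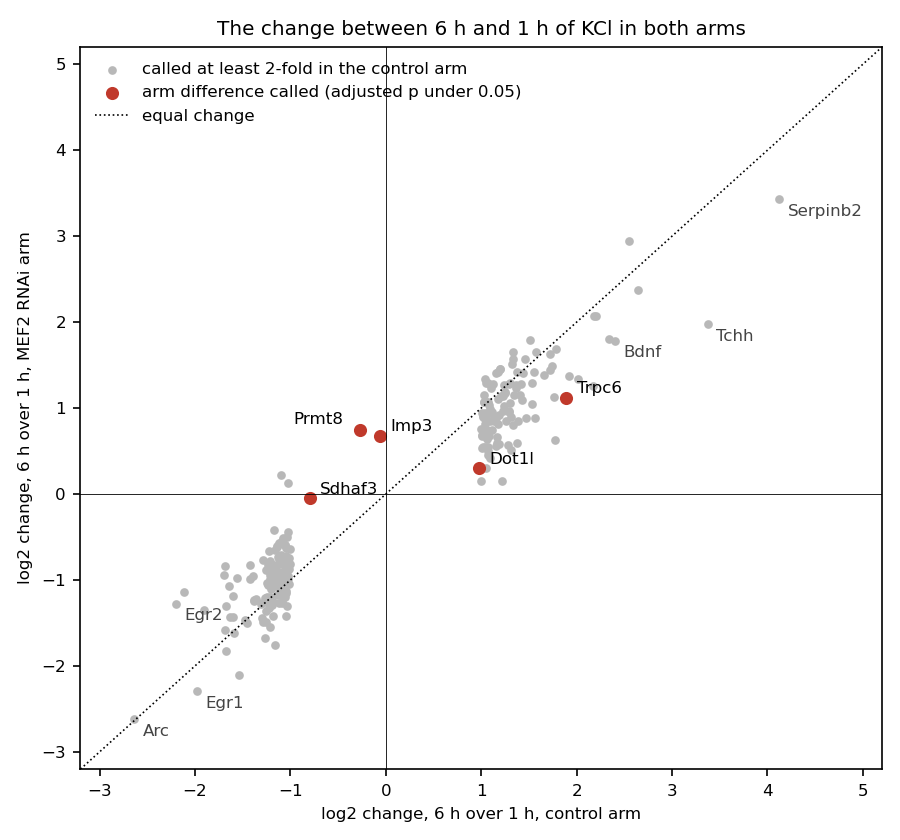
Log2 change of 6 h over 1 h of KCl in the RNAi arm (vertical) against the control arm (horizontal) for the 234 genes called at least 2-fold in control neurons, in grey, and the 5 genes whose difference between the arms was called, in red. The dotted line marks equal change, and 232 of the 234 grey points have the same sign in both arms.

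Promoter motifs were also counted for the 28 early genes of the RNAi arm with 1 promoter entry, for which Arc had none. A CRE core was present in 71.4% of them, beside 32.6% of promoters of genes that rose at least 2-fold, 40.9% of those that fell at least 2-fold and 32.8% of those of genes tested. The full CRE (TGACGTCA), which contains the core, was present in 5 of the 28 early genes (17.9%) and in 3.37% of genes tested. CArG boxes were present in 3 of the 28 early genes (10.7%) and in 1.26% of genes tested. Egr sites (GCGNGGGCG) were present in 6 of the 28 early genes (21.4%) and in 10.6% of genes tested. The Egr site was present in 14.0% of the promoters of genes that rose at least 2-fold and in 5.38% of those that fell at least 2-fold. The TATA motif was present in 7 of the 28 early genes (25%) and in 6.58% of genes tested. An E-box was present in 5 of the 28 (17.9%) and in 9.91% of genes tested. AP-1 sites were present in 1 of the 28 (3.57%, beside 4.71% of genes tested) and MEF2 sites in 0 of the 28 (beside 1.26%). Both strands were searched, and these shares are descriptions of the windows.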

How the data were processed

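Messenger RNA was measured on 18 Affymetrix arrays, 3 in each of 6 groups, of which the 3 control arrays at 6 h and the 3 at 1 h of KCl were compared. The authors' deposited table holds 1 linear intensity per probe set and array for 31099 probe sets; the sources used here do not give the normalization or the way probes were combined. Per the labels' protocols, total RNA was extracted with a Qiagen kit and biotin-labelled cRNA was made by Affymetrix procedures. The number of arrays limits the precision.

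Values under the 20th percentile of the table, 72.6, were set to it before log2 was taken, which understates changes of dim genes. A gene was its brightest probe set with 1 symbol in the platform annotation (20832 probe sets, 14218 genes, of which 20764 probe sets matched RefSeq's GRCr8 names). Genes above their array's 40th percentile on at least 3 arrays were tested, 10934 in all. limma 3.58.1 in R 4.3.3 fitted all 18 arrays with 1 mean per group (12 residual degrees of freedom), two-sided; p-values were adjusted over all tested genes by Benjamini-Hochberg. The script was tested on simulated data.

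Replicate numbers come from the labels. Deviations of 6 h and 1 h arrays from their group means correlated at 0.635, 0.488 and 0.418 for the same number and at -0.465 to 0.180 for different numbers, so the numbers were taken to pair the arrays. The main fit did not use this pairing. With the number as a block, an alternative, 4894 genes were called in place of 3878, and 77 differences between the arms in place of 5. Other alternatives were other floors, filters, quantile normalization, the mean of all probe sets, only the 6 arrays, and omission of each array.

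Named genes were the 15 largest rises and the 15 largest falls that were called with no overlap of arrays, 21 fixed genes, up to 5 members of each of 40 gene lists by smallest adjusted p, and the 5 largest called differences between the arms in each direction. Members of the early set of the RNAi arm, other probe sets and the marker genes Pdgfra, Mki67 and Col3a1 were named after their values were seen. The lists hold 793 genes, 622 of them tested, and overlap in part. The members and lists were chosen with earlier results of these data known.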

Additional observations from a re-analysis of the deposited data

Results flagged for a closer look

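In 5 genes the change between 6 h and 1 h of KCl differed between the RNAi arm and the control arm by the interaction test of limma (adjusted p under 0.05). Differences are RNAi minus control in log2 change, with 3 arrays per group.

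Prmt8 had the largest, 1.01 (adjusted p = 0.0277). It had 1757, 2303 and 2426 at 6 h in RNAi neurons, against 1167, 1364 and 1324 at 1 h, and 2713, 3134 and 3310 at 6 h in control neurons, against 3773, 3786 and 3426 at 1 h. Sdhaf3 differed by 0.75 (adjusted p = 0.0154). Its RNAi arrays had 1334, 1277 and 1400 at 6 h, against 1292, 1494 and 1356 at 1 h, and its control arrays had 713, 732 and 755 at 6 h, against 1278, 1269 and 1279 at 1 h. Imp3 differed by 0.74 (adjusted p = 0.00664), with 1253, 1377 and 1366 at 6 h in RNAi neurons, against 790, 856 and 849 at 1 h, and control arrays that overlapped between the times.

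Trpc6 differed by -0.77 (adjusted p = 0.0288), with 163, 181 and 147 at 6 h in RNAi neurons, against 76.3, 68.3 and 75.9 at 1 h, where 1 array is under the floor. Dot1l differed by -0.67 (adjusted p = 0.0245), with 767, 927 and 890 at 6 h in RNAi neurons, against 710, 685 and 693 at 1 h. The cause of these differences was not tested.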

How the results depend on the processing

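The count of called genes lay between 3162 (only the 6 arrays compared) and 4894 (replicate block), with 3272 to 3529 when 1 array was left out, and the counts of higher and lower genes stayed within 1.5 times of 1642 and 2236 under every alternative run. Of the 171 called genes among those named by the rule, 127 were tested and called under all 15 settings, 33 lost the call or turned in at least 1, and 11 did not pass every filter and were called wherever they were tested. Of 52 not called, 23 were called in some alternative; with the replicate block these were 14, and the block ended no call among the named genes. Grin1 turned to -0.053 and Tef to 0.037 with the mean of all probe sets. The count of genes whose change differed between the arms was 77 with the replicate block, 12 with no filter on dim probe sets, 12 with the replicate 1 arrays left out of all groups (chosen after seeing the data), and 1 to 9 when 1 array was left out; without a filter more genes were tested, and otherwise the cause was not tested. The share of early genes called lower was 28.9% at the lower threshold, by whose construction weaker rises enter. Signals near the floor limit the folds of dim genes, and 3 arrays per group limit all.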

Other observations

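In control neurons several smaller groups held genes with opposite changes between 6 h and 1 h. Over all genes tested 15% were called higher and 20.4% lower, so both directions within a group are not particular to it. Of 12 cadherins and protocadherins 4 were higher and 3 lower. Pcdh20 averaged 1310 at 6 h and 628 at 1 h (log2 change 1.07 ± 0.10 SE), and Pcdh10 averaged 998 at 6 h and 541 at 1 h (0.88 ± 0.13 SE). Cdh8 averaged 411 at 6 h and 650 at 1 h (-0.66 ± 0.11 SE). Of 25 genes of glycolysis and glucose uptake 7 rose and 5 fell, with Slc2a1, the glucose transporter GLUT1, higher by 0.58 and Pdk2, a kinase that inhibits pyruvate dehydrogenase, lower (-0.57). Of 17 apoptosis and p53 genes 3 rose and 5 fell (3 fell without control 1 h replicate 1), with Aen, a p53-induced nuclease, higher by 0.58 and Bid, a death-promoting BCL2 relative, lower (-0.49). Of 16 sterol genes 2 rose and 1 fell, and 6 rose with the replicate block and 5 without control 6 h replicate 1. Id1, an inhibitor of bHLH factors, averaged 1001 at 6 h and 362 at 1 h after 742 at 0 h, and Id2 averaged 2281 at 6 h and 3855 at 1 h after 3744 at 0 h.

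Epm2aip1, named after its values were seen, was the 1 gene called in opposite directions in the arms, with log2 changes of 0.29 in RNAi neurons and -0.27 in control neurons, and the difference was not called (adjusted p = 0.118).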
